A study of Homo sapiens with 12 samples.

Results

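Antisense RNA genes are transcribed from the strand opposite another gene. Of the 5583 genes that GENCODE 29 classes as antisense, 124 were well measured here, meaning that their raw counts summed to at least 1200 over 12 RNA-Seq libraries of HEK293T cells, a human embryonic kidney line. They were chosen by annotation class and by this sum, after 4 small nucleolar RNA host genes (SNHG7, SNHG10, SNHG12 and ZFAS1) had been left out by name. The count table holds 58735 genes, of which 3972 antisense genes had at least 1 count, and the 124 took 51.9% of all counts on antisense genes.

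The libraries form 4 groups of 3 from wild-type HEK293T cells. Cells of the DMSO group were given no compound. Those of the CEP group were given AHL-Pu-1 (25 µM, 1 h), a clickable electrophilic purine that reacts with protein cysteines, although the treatment protocol on the labels gives 25 mM for it. Those of the 4SU group were given 4-thiouridine (100 µM, 16 h), a uridine analog that cells build into new RNA and that binds nearby protein under UV light, and those of the CEP+4SU group were given both. One protocol with UV irradiation stands on the labels of all 12 libraries, so whether the DMSO and CEP cells were irradiated is not stated apart. The series describes independent replicates, without naming separate cultures, so p-values measure the spread between these libraries. Libraries were made from poly(A) RNA, and antisense transcripts without a poly(A) tail were not captured.

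Antisense transcripts can share a promoter region with the sense gene, overlap its end, or lie within its body. Some are known to act in cis on the gene they overlap, for instance through chromatin or by interference between the polymerases, whereas many have no known function. KCNQ1OT1 is known for silencing genes of its own imprinted domain, whereas HOTAIR is known for acting on chromatin at other loci.

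Total counts per library lay between 16569114 and 24644734. VIM, KRT8, KRT18 and NEFM, genes expected in HEK293T cells, were at 9.65 to 50.3 FPKM (fragments per kilobase of exon, scaled to library size) in every library. PAX2 and LHX1, also expected at a clear level, were low, at 0.735 to 1.46 FPKM. PTPRC, CD3E, ALB, HBB, PECAM1 and MYH7, markers of blood, liver, endothelium and muscle, reached at most 0.121 FPKM. CEP replicate 2 and CEP+4SU replicate 2 had the fewest genes with a count, 22230 and 22627, against 24376 to 25869 in the other libraries.

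Of the 124 antisense genes, 110 overlapped the body of a protein-coding gene on the other strand, 23 of them more than 1 such gene. The partner with the longest overlap was used. In 51 pairs the genes overlapped head-to-head, with the starts inside each other, in 23 tail-to-tail, in 21 the antisense gene lay within the sense gene, and in 15 the sense gene lay within the antisense gene. Exons of both genes met in 87 pairs and did not in 23. The other 14 antisense genes overlapped no protein-coding gene on the other strand, and 8 of these began within 1000 bp of a divergent protein-coding start, such as BOLA3-AS1 beside BOLA3 and MAFG-DT beside MAFG.

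The overlap limits what a count can mean, because the kit description names directional and non-directional libraries alike and the counting strand is not stated. Of 245 antisense genes whose exons lay wholly under exons of well-measured genes on the other strand, 0 had any count in any library, whereas 70.9% of 2374 antisense genes under no other exon had at least 1. Where the covering exons were on the same strand, 66 of 173 protein-coding genes had a count, at most 585 in all. The median antisense gene had 5.92% of its exon bases under an opposite-strand exon (range 0 to 48.4%). Fragments of the unspliced sense transcript that fall on an antisense exon cannot be told apart from antisense RNA in these counts. In addition, 5 of the 124 lay wholly inside a protein-coding gene on their own strand, among them THAP9-AS1 in SEC31A, PSMA3-AS1 in ARMH4, AC005034.3 in MRPL19 and AP001469.3 in MCM3AP.

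RefSeq start sites were available for 56 of the 124 by symbol, chromosome and strand, as 78 windows of 300 bases (250 before and 50 after the start, GRCh38.p14). Below are the windows of 4 of the 5 antisense genes that passed the threshold between cells with and without 4SU, with bases of annotated protein-coding UTRs left out. They are shown because these genes are the results the comparison turns on. Capitals mark matches on either strand to GGGCGG (GC box core), CCAAT, or CCGGAAG (an ETS core). Each is written 5′ to 3′ on the strand of the antisense gene.
MCM3AP-AS1, chr21:46228981-46229280, plus strand: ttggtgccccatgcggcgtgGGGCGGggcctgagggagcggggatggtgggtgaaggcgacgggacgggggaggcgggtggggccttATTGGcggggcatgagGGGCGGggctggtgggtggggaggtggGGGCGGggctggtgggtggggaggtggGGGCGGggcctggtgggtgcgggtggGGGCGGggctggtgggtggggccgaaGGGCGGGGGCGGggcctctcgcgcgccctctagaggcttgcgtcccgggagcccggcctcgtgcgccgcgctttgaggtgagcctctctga
CTBP1-DT, chr4:1249190-1249489, plus strand: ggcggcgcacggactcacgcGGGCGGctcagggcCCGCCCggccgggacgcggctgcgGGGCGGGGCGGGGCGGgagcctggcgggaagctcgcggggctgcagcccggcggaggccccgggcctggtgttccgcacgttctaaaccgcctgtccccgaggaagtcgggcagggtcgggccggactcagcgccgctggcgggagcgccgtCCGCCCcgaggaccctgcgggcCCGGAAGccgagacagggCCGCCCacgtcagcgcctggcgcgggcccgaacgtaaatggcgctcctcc
VPS9D1-AS1, chr16:89711606-89711881, plus strand: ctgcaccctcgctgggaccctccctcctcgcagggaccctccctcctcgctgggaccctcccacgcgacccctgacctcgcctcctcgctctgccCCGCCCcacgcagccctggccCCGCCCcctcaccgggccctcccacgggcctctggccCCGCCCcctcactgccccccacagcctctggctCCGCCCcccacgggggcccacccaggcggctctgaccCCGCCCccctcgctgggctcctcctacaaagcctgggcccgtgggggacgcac
CKMT2-AS1, chr5:81301520-81301602, minus strand: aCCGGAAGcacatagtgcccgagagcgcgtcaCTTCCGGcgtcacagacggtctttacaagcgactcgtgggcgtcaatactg

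The MCM3AP-AS1 and CTBP1-DT windows each held 7 matches to GGGCGG, the VPS9D1-AS1 stretch held 5, and the CKMT2-AS1 stretch held 2 matches to CCGGAAG. The motif GGGCGG was present in 60.3% of the 78 windows of antisense genes and in 45.0% of the 35116 windows of all genes. For CCAAT the shares were 35.9% and 34.6%, for CCGGAAG 10.3% and 10.3%, and for TATAAA 2.56% and 11.5%. The median window of the antisense genes held 26 CG dinucleotides, and that of all genes 14. The antisense genes had been chosen for high counts and the windows of all genes had not, so both sets differ in more than annotation class.

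In DMSO cells the antisense genes were mostly lower than the sense genes they overlap, by FPKM, which is per exon length. In 102 pairs with both genes measured, the antisense gene was below its partner in 69 and above it in 33, and the median antisense level was 3.24 FPKM against 7.32 FPKM for the sense genes. The rest of the 110 pairs were left out because the sense gene had too few counts to be tested. The antisense genes had been chosen for high counts, so both choices bear on these numbers and on those by arrangement. FPKM divides by the whole exon length although genes wholly under opposite-strand exons had no counts, so both levels may be understated where exons meet. Arrangement went with this ratio. Head-to-head, the antisense gene was lower in 40 of 50 pairs, at a median of 36.4% of the sense level, and tail-to-tail in 15 of 20, at 27.7%. When nested, it was lower in 10 of 21 pairs within the sense gene and in 4 of 11 around it, with medians of 174% and 172%. These are descriptions of levels, and no test was made.

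**Figure D1:**
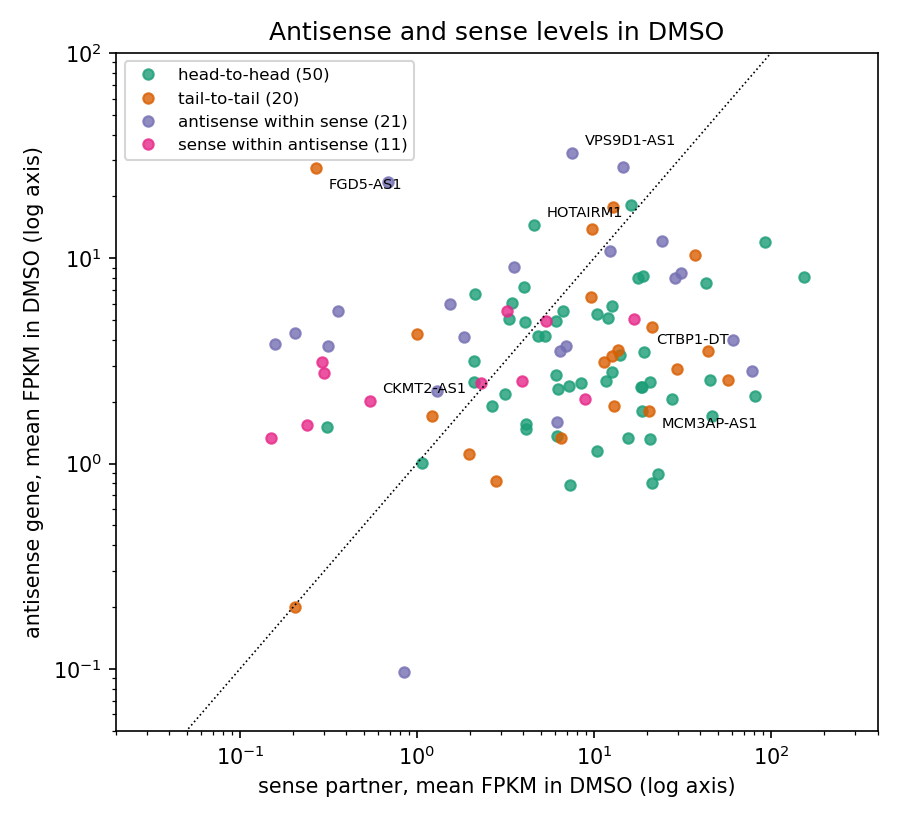
Mean FPKM of each antisense gene (vertical, log axis) against that of its opposite-strand partner (horizontal, log axis) in 3 DMSO libraries, one point per pair, coloured by arrangement; the dotted line marks equal levels. Points below the line are the 69 pairs with the antisense gene lower; FGD5-AS1 lies far above it.

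VPS9D1-AS1 (chr16:89711856-89718165, plus strand, GRCh38) had the highest level, 32.4 ± 1.26 FPKM (SD, n = 3 DMSO libraries). It lies within VPS9D1, itself at 7.52 ± 0.80 FPKM. FGD5-AS1 (chr3:14920347-14948424, minus strand) had the most counts, 35461 in all, and 27.5 ± 0.33 FPKM, whereas FGD5, a guanine nucleotide exchange factor of endothelial cells, was at 0.27 ± 0.05 FPKM. ATP2A1-AS1 was at 23.5 FPKM beside 0.684 FPKM for ATP2A1, the calcium pump of skeletal muscle. GATA2-AS1 and GATA2, a transcription factor, stood near each other, at 18.2 and 16.3 FPKM. HOTAIRM1 was at 14.6 FPKM. The remaining members of the 10 highest were AL513165.1 (30.4 FPKM, 289 exon bases), AC099850.3 (27.9 FPKM, within PRR11), AC005288.1 (17.9 FPKM, tail-to-tail with MED1), AC115618.2 (17.2 FPKM) and ARRDC1-AS1 (13.8 FPKM, tail-to-tail with ARRDC1). At the other end of the ratio, SLC16A1-AS1 stood at 2.61% of the FPKM of SLC16A1, a monocarboxylate transporter.

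None of these high members except VPS9D1-AS1 passed a threshold in any comparison. FGD5-AS1 read 144, 141 and 142 CPM (counts scaled to the TMM-normalized library size) in DMSO, 145, 156 and 158 in CEP, 141, 153 and 147 in 4SU, and 162, 151 and 149 in CEP+4SU. The CEP and CEP+4SU libraries lay above the DMSO libraries and the 4SU libraries overlapped them, with a log2 change in CEP+4SU of 0.12 (SE 0.07, adjusted p = 0.357). GATA2-AS1 read 41.1, 42.7 and 41.9 CPM in DMSO, 42.3, 33.9 and 35.7 in CEP, 32.9, 32.1 and 33.8 in 4SU, and 35.9, 31.9 and 35.6 in CEP+4SU. Its log2 fold change between cells with and without 4SU was -0.23 (SE 0.07, adjusted p = 0.139), short of the threshold, and that of GATA2 was -0.02 (SE 0.08).

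The count minimum is a choice, and genes on either side of it had nearly the same counts. Just inside were KTN1-AS1 and LINC00649 with 1206 counts each and RGS5 (ENSG00000232995, an antisense gene sharing its symbol with the protein-coding RGS5) with 1203. Just outside were CCDC183-AS1 with 1187, AC087741.1 with 1182 and SDCBP2-AS1 with 1170.

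Each treated group was compared with DMSO, each compound was averaged over the other, and their interaction was tested, in one edgeR quasi-likelihood model of 17729 genes with Benjamini-Hochberg adjustment at 0.05. All 124 antisense genes passed the filter on low counts. These comparisons share libraries and are not independent of each other.

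For 4SU averaged over CEP, 5 antisense genes passed the threshold. Between the 6 libraries with and the 6 without it, AP001469.3, MCM3AP-AS1, CKMT2-AS1 and CTBP1-DT rose and VPS9D1-AS1 fell, 5 of 124, where 0.558% of all genes passed (0.175% higher and 0.384% lower). At an unadjusted p under 0.05 stood 26 higher and 4 lower members, 24.2% of the 124 against 12.6% of all genes (5.66% higher and 6.95% lower). In bulk RNA, fewer cells that make a transcript and less of it per cell cannot be told apart.

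AP001469.3 (chr21:46251549-46254133, minus strand, 2277 exon bases) showed the largest change. It read 6.25, 5.81 and 6.30 CPM in DMSO, 6.44, 7.78 and 7.16 in CEP, 8.63, 10.7 and 8.87 in 4SU, and 10.4, 12.1 and 10.3 in CEP+4SU. All 6 libraries with 4SU lay above all 6 without it. The log2 fold change for 4SU was 0.62 (SE 0.11, edgeR adjusted p = 0.0151).

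MCM3AP-AS1 (chr21:46229217-46259390, plus strand) lies tail-to-tail with MCM3AP, which encodes a scaffold protein of nuclear mRNA export. It read 12.8, 14.7 and 14.0 CPM in DMSO, 13.9, 16.7 and 15.8 in CEP, 22.1, 21.7 and 20.1 in 4SU, and 16.9, 21.2 and 19.7 in CEP+4SU. The groups with and without 4SU did not overlap, although CEP replicate 2 and CEP+4SU replicate 1 came close. The log2 fold change was 0.47 (SE 0.09, edgeR adjusted p = 0.0161).

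Both genes belong to one locus. AP001469.3 lies inside the body of MCM3AP-AS1 on the opposite strand and inside MCM3AP (chr21:46235126-46286297) on the same strand, with 2143 of its 2277 exon bases in MCM3AP introns and 134 in MCM3AP exons. Its counts can thus hold unspliced MCM3AP RNA and, as the counting strand is not stated, unspliced MCM3AP-AS1 RNA. MCM3AP-AS1 overlaps 24265 bp of the MCM3AP body, so its counts can hold unspliced MCM3AP RNA too. These data cannot separate such RNA, and the changes of both genes need not be separate. MCM3AP itself was far higher and read 197, 194 and 190 in DMSO and 181, 194 and 186 in 4SU, with overlapping groups and a 4SU log2 difference of -0.01 (SE 0.05, adjusted p = 0.948).

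**Figure D2:**
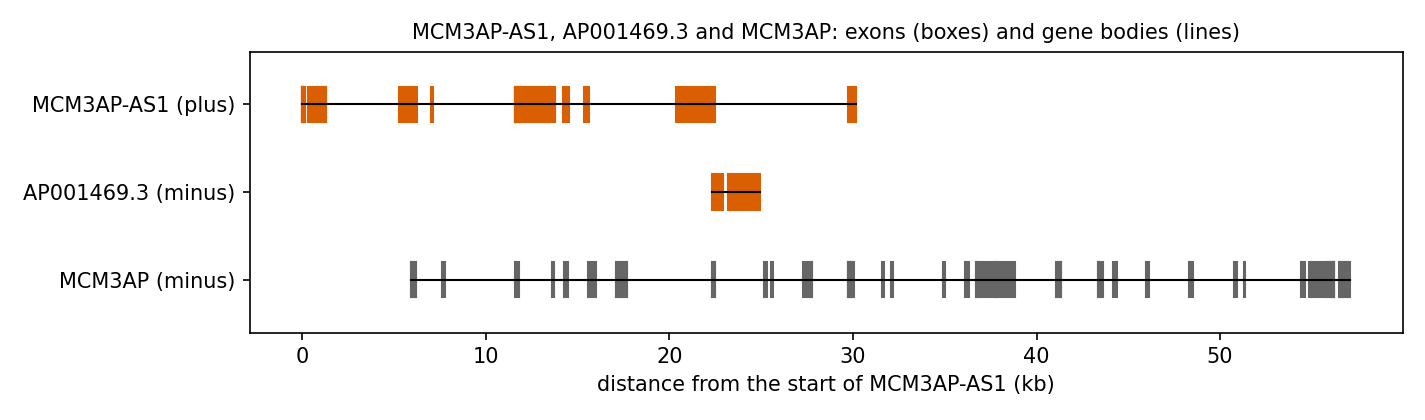
Exons (boxes) and gene bodies (lines) of MCM3AP-AS1, AP001469.3 and MCM3AP by distance in kb from the start of MCM3AP-AS1, with strand in the labels. AP001469.3 sits in the body of both other genes, on the strand of MCM3AP, and 2143 of its 2277 exon bases fall in MCM3AP introns.

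CKMT2-AS1 (chr5:81204084-81301560, minus strand) spans CKMT2, the mitochondrial creatine kinase of striated muscle, and their exons do not meet. It read 7.48, 8.33 and 7.88 CPM in DMSO, 8.57, 6.89 and 7.07 in CEP, 9.53, 11.7 and 12.2 in 4SU, and 11.3, 11.6 and 9.99 in CEP+4SU. Libraries with 4SU were again all above those without, by 0.52 on the log2 scale (SE 0.11, edgeR adjusted p = 0.0319). CKMT2 was low, at 1.04 to 2.07 CPM without 4SU, 2.40 to 3.71 in 4SU and 1.36 to 2.01 in CEP+4SU, with a log2 fold change for 4SU of 0.62 (SE 0.24) that did not pass (adjusted p = 0.279).

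CTBP1-DT (chr4:1249300-1288291, plus strand) overlaps head-to-head with CTBP1, a transcriptional corepressor, the starts being 653 bp apart. It read 27.4, 25.5 and 29.6 CPM in DMSO, 24.7, 25.6 and 18.9 in CEP, 32.2, 34.3 and 34.1 in 4SU, and 32.7, 30.0 and 31.6 in CEP+4SU. The lowest library with 4SU and the highest without were next to each other, at 30.0 and 29.6. The log2 change with 4SU was 0.37 (SE 0.08, edgeR adjusted p = 0.0395), and that of CTBP1 was -0.10 (SE 0.06, adjusted p = 0.563).

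VPS9D1-AS1 was the only member past the threshold with a lower level, where 32 of the 124 had a negative log2 fold change. It read 59.4, 57.3 and 55.3 CPM in DMSO, 62.2, 53.3 and 45.5 in CEP, 44.4, 39.4 and 41.3 in 4SU, and 45.3, 35.9 and 47.1 in CEP+4SU. CEP replicate 3 overlapped the libraries with 4SU, and the other 5 without 4SU lay above them. The log2 fold change was -0.39 (SE 0.08, edgeR adjusted p = 0.0342), and VPS9D1 showed 0.04 (SE 0.10, adjusted p = 0.913).

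**Figure D3:**
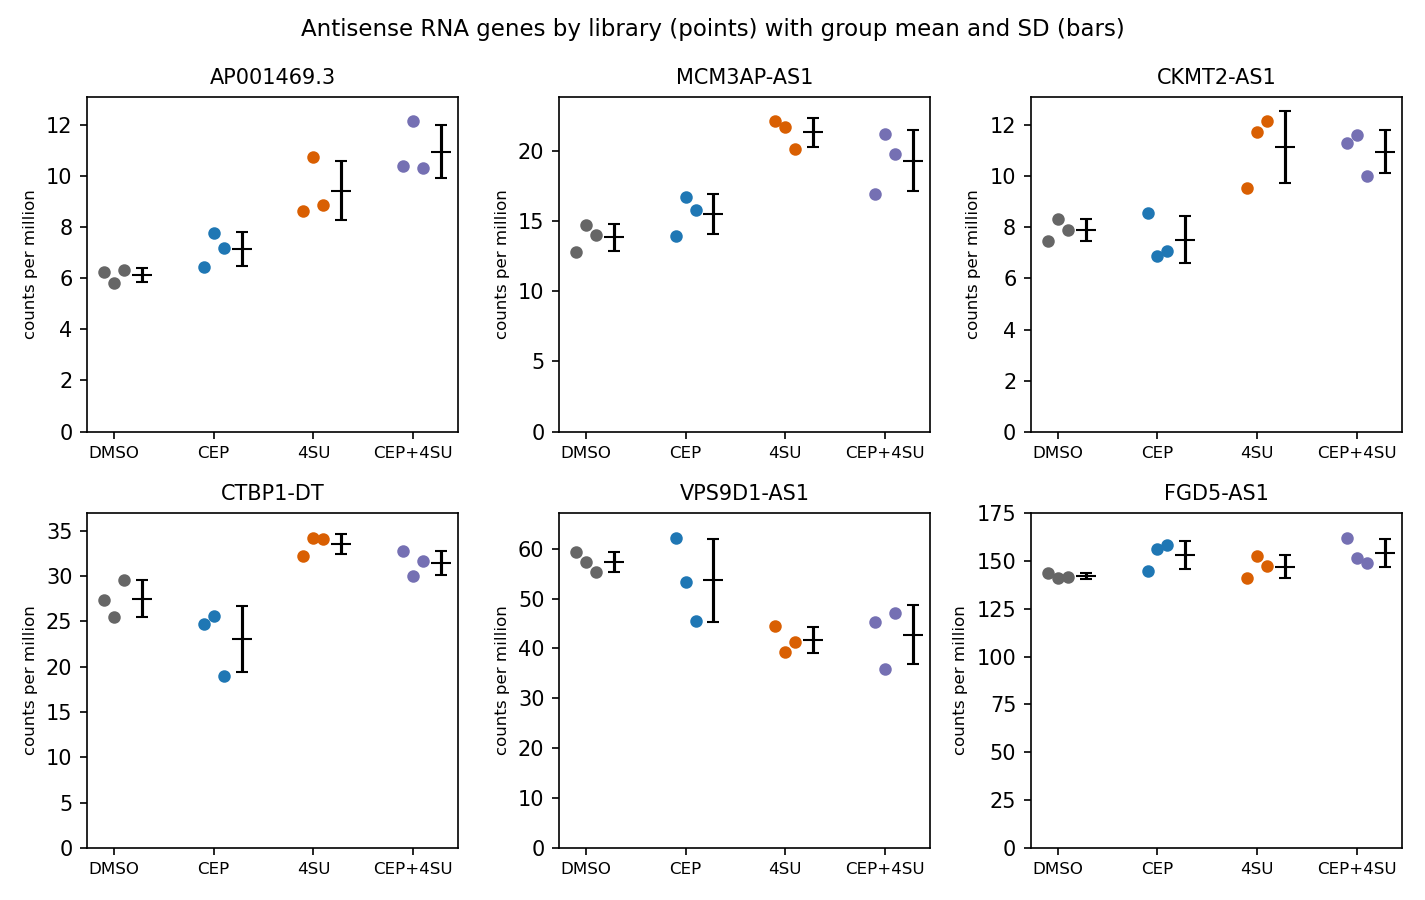
CPM of the 5 antisense genes past the threshold for 4SU, and of FGD5-AS1, in each of 12 libraries (points, 3 per group) with the group mean and SD (bars); vertical axes start at 0. In AP001469.3, MCM3AP-AS1, CKMT2-AS1 and CTBP1-DT every library with 4SU lies above every one without; in FGD5-AS1 libraries with and without 4SU overlap.

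These 5 calls rest on few libraries. With 1 library left out of 12 in turn, AP001469.3 passed in 9 fits (adjusted p 0.0128 to 0.0618, lost without DMSO replicate 1, DMSO replicate 3 or 4SU replicate 2), and MCM3AP-AS1 in 8 (0.0150 to 0.0739, lost without the same 3 or 4SU replicate 3). CKMT2-AS1 passed in 5 (0.0349 to 0.145), namely without CEP replicate 1 or 2, 4SU replicate 1, or CEP+4SU replicate 2 or 3. CTBP1-DT passed in 3 (0.0197 to 0.149), without CEP replicate 1 or 2 or CEP+4SU replicate 2, and VPS9D1-AS1 in 3 (0.0159 to 0.149), without CEP replicate 2 or 3 or CEP+4SU replicate 2. All kept their direction. In number, 0 members passed without DMSO replicate 1, DMSO replicate 3 or 4SU replicate 2, 1 without 4SU replicate 3, 2 without DMSO replicate 2 or CEP+4SU replicate 1, 3 without CEP replicate 3, 4SU replicate 1 or CEP+4SU replicate 3, and 4 or 5 in the other fits. With limma on the deposited FPKM, 1 member passed on the log2(FPKM + 1) scale and 0 on the log2(FPKM + 0.1) scale.

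Of the sense partners measured, 101 in number, NNT alone passed for 4SU, where 0.558% of all genes did. NNT, the mitochondrial proton-pumping transhydrogenase, read 104, 111 and 100 CPM in DMSO, 116, 125 and 112 in CEP, 91.4, 86.5 and 90.8 in 4SU, and 100, 102 and 94.5 in CEP+4SU, a log2 fold change of -0.24 (SE 0.05, edgeR adjusted p = 0.0486). NNT-AS1, head-to-head with it, read 16.7, 18.5 and 20.7 CPM in DMSO and 16.3, 22.9 and 22.0 in 4SU. Its groups overlapped, with a change for 4SU on the log2 scale of 0.06 (SE 0.09, adjusted p = 0.862).

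Beyond the genes past the threshold, more antisense genes stood above than below zero for 4SU. Of the 124, 92 had a positive log2 fold change (74.2%), with a median of 0.09. Among all 17729 genes 49.3% were positive (median -0.0019), among the sense partners 46.5% (median -0.01), and among the other 970 antisense genes tested 62.2% (median 0.12). Another class of noncoding RNA gave a like share, as 82 of 110 lincRNA genes with at least 1200 counts were positive (74.5%, median 0.11). The 124 together took 0.171 to 0.183% of all counts in the 6 libraries with 4SU and 0.160 to 0.170% in the 6 without.

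**Figure D4:**
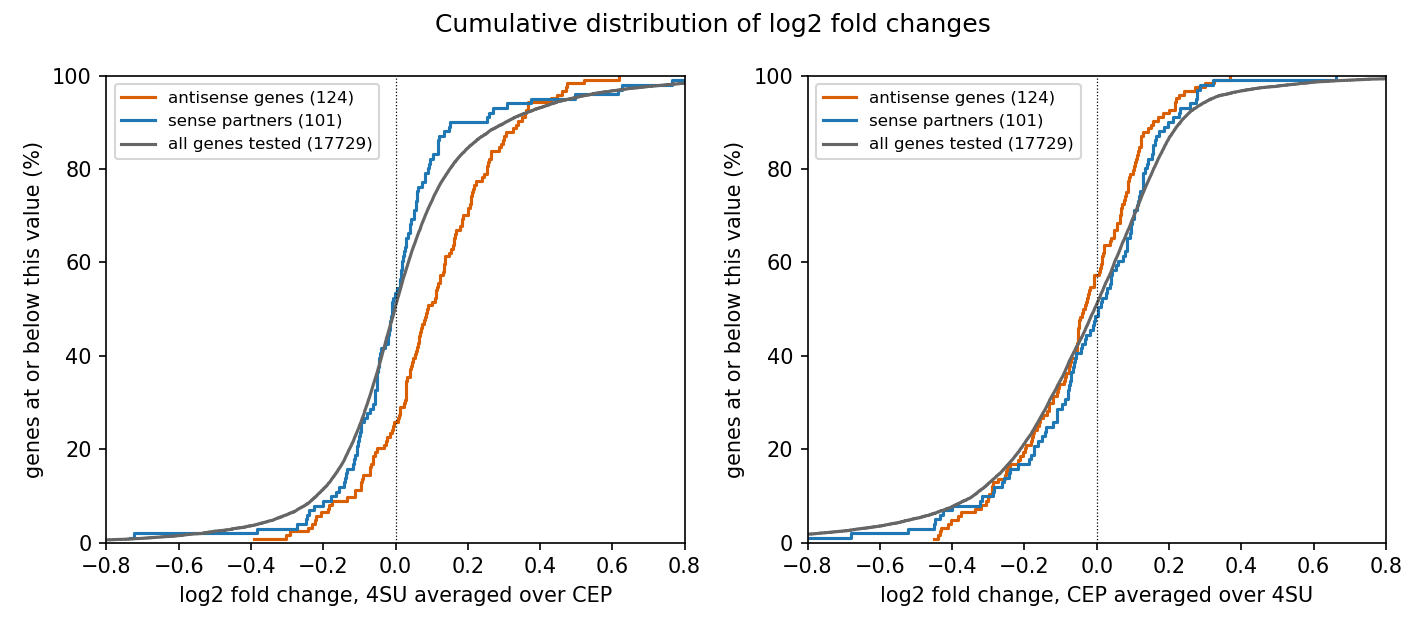
Cumulative share of genes (%) at or below each log2 fold change for 124 antisense genes, 101 sense partners and 17729 genes tested, for 4SU (left) and CEP (right); the horizontal axis is limited to between -0.8 and 0.8. For 4SU the antisense curve lies to the right of both others around zero, with 74.2% of antisense genes above zero against 49.3% of all genes.

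The 4SU effect was measured in disjoint sets of libraries, 4SU against DMSO and CEP+4SU against CEP. Of the 124, 84 were positive in the first (median 0.09) and 81 in the second (median 0.11), 62 were positive in both (50% of the 124, against 29.6% of all genes) and 21 negative in both (16.9% against 31.4%). In the second, chosen after the data were seen, the log2 differences were 0.62 for AP001469.3, 0.32 for MCM3AP-AS1, 0.54 for CKMT2-AS1, 0.45 for CTBP1-DT and -0.33 for VPS9D1-AS1. Against DMSO alone, 4SU gave 0.62, 0.62, 0.50, 0.29 and -0.46 for the same genes. These genes had been picked by the average of both comparisons, so their like directions are in part built in. No antisense gene passed in either set, and the share of all genes that passed in the second is not given here. For 4SU against DMSO the background was 0.00564% of genes, 12 higher and 5 lower members had an unadjusted p under 0.05 (13.7%, against 6.5% of all genes, 2.78% higher and 3.72% lower), and DESeq2 and limma called 0.

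By arrangement, the antisense genes positive for 4SU were 37 of 51 head-to-head (median 0.11), 19 of 23 tail-to-tail (0.08), 14 of 15 that span the sense gene (0.16), 12 of 14 without a partner (0.16) and 10 of 21 within the sense gene (-0.0047). Members with no exon base under an opposite-strand exon were positive in 19 of 28 cases and the others in 73 of 96. Base composition moved with the change only weakly. Across the 124 genes, which are not independent replicates and share all libraries, Spearman's rho of the 4SU log2 fold change with GC content was -0.21, and across all genes -0.14. With the share of U in the transcript, the base that 4SU replaces, rho over the 124 was 0.21, and with exon length 0.22.

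CEP moved no antisense gene past the threshold, either against DMSO (0 of 124, background 0.0564%, 0.0169% higher and 0.0395% lower) or averaged over 4SU (0 of 124, background 0.276%, 0.102% higher and 0.175% lower) by edgeR. At an unadjusted p under 0.05 stood 5 higher and 15 lower members for CEP against DMSO (16.1%, against 18.6% of all genes, 9.79% higher and 8.77% lower), and 5 higher and 19 lower averaged over 4SU (19.4%, against 24.3%, 13.5% higher and 10.8% lower). DESeq2 called 1 and 4 of them, and limma on FPKM 0 and 0. Without CEP replicate 1, edgeR called 4 and 12, and without CEP+4SU replicate 1 it called 4 for CEP averaged over 4SU. The shares of all genes called in these alternative fits are not given here, so these counts are not set against a background.

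The members with the smallest p for CEP averaged over 4SU all read lower. TSPEAR-AS2, within TSPEAR, read 15.4, 19.0 and 16.2 CPM in DMSO, 15.9, 12.5 and 13.1 in CEP, 18.8, 17.5 and 17.9 in 4SU, and 13.3, 12.9 and 15.1 in CEP+4SU (log2 fold change -0.34, SE 0.09, adjusted p = 0.07). EXOC3-AS1, whose start is 2 bp from that of EXOC3, an exocyst subunit, read 10.3, 8.52 and 8.92 CPM in DMSO, 7.45, 4.89 and 7.69 in CEP, 8.26, 8.37 and 7.56 in 4SU, and 5.59, 6.09 and 6.23 in CEP+4SU (-0.45, SE 0.12, adjusted p = 0.0719). In both genes most libraries with CEP lay below those without it, CEP replicate 2, a library with few genes detected, was the lowest of all, and for EXOC3 the log2 fold change was -0.02 (SE 0.06). FLJ37453, head-to-head with the transcriptional repressor gene SPEN, had -0.41 (SE 0.11, adjusted p = 0.0705), AL118506.1 -0.43 (SE 0.12, adjusted p = 0.0731) and HOXA-AS2 -0.43 (SE 0.13, adjusted p = 0.0762).

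For CEP, 71 of the 124 stood below zero (median -0.04), as did 9056 of all 17729 genes (median -0.0065). Below zero were also 617 of the other 970 antisense genes tested (median -0.14) and 64 of the 110 lincRNA genes (median -0.03). Here GC content went with the difference. Across the 124 genes Spearman's rho was -0.56, and across all genes -0.60. In the 62 antisense genes of lower GC content 39 were positive (median 0.05), and in the 62 of higher GC content 14 were (median -0.13). The part of GC content in the CEP values was not tested.

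**Figure D5:**
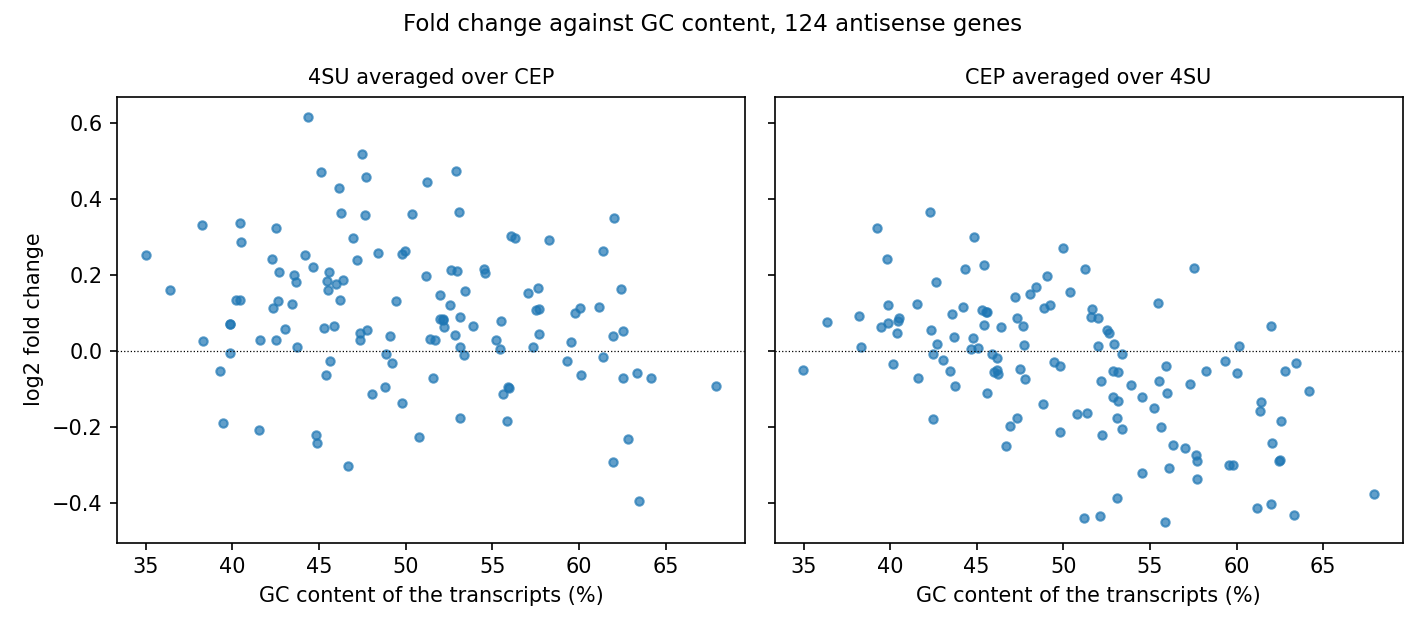
Log2 fold change (vertical) of the 124 antisense genes against the GC content of their transcripts in % (horizontal), for 4SU (left) and CEP (right), one point per gene. For CEP the points descend with GC content (Spearman's rho -0.56), and for 4SU less so (-0.21).

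For CEP+4SU against DMSO, 2 antisense genes passed the threshold, both higher, 2 of 124, where 1.64% of all genes passed (0.643% higher and 0.993% lower). Both are of the MCM3AP locus. AP001469.3 had a log2 fold change of 0.84 (SE 0.15, edgeR adjusted p = 0.0178) and MCM3AP-AS1 of 0.48 (SE 0.12, edgeR adjusted p = 0.0495), with the values given above, and MCM3AP of -0.02 (SE 0.07). Each call was lost without any 1 of the 3 DMSO libraries or without CEP+4SU replicate 2 or 3, with adjusted p between 0.0197 and 0.101 for AP001469.3 and between 0.0286 and 0.235 for MCM3AP-AS1 over the 6 fits, and 0 members passed in those 5 fits. Without CEP+4SU replicate 1, 5 members passed. With the GC trend removed, 1 of the 2 stayed, AP001469.3. At an unadjusted p under 0.05 stood 17 higher and 11 lower members, 22.6% against 21.4% of all genes (10.5% higher and 10.8% lower).

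Next in order came AC121761.1, which lies within GLIPR1 and shares no exon base with it. It read 6.16, 5.37 and 5.60 CPM in DMSO, 7.56, 8.42 and 8.11 in CEP, 7.36, 8.25 and 6.52 in 4SU, and 8.86, 9.78 and 7.53 in CEP+4SU. All treated libraries lay above the DMSO libraries, with a log2 change in CEP+4SU of 0.61 (SE 0.16, adjusted p = 0.0566). EMX2OS, head-to-head with EMX2, a homeobox gene of the developing kidney and brain, read 9.02, 9.36 and 8.46 CPM in DMSO and 11.2, 13.0 and 14.7 in CEP+4SU (0.54, SE 0.15, adjusted p = 0.0651), and EMX2 had 0.17 (SE 0.27). VPS9D1-AS1 had -0.42 (SE 0.11, adjusted p = 0.0649). Whether CEP changed the effect of 4SU was tested by the interaction, for which 0 antisense genes and 0% of all genes passed with edgeR, 4 members had an unadjusted p under 0.05 (3.23%, against 2.63% of all genes, 1.29% higher and 1.34% lower), and DESeq2 and limma called 0.

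Each antisense gene was also set against its sense partner, as the log2 ratio of their CPM in each library, tested with limma over 865 annotated pairs, 102 of them with a member of the 124. No pair passed in any of the 3 comparisons tested, among the members or at all (0%). At an unadjusted p under 0.05 were 8 of 102 member pairs for CEP+4SU against DMSO (7.84%, against 8.44% of all pairs, 4.16% higher and 4.28% lower), 4 for CEP averaged over 4SU (3.92%, against 8.32%, 1.39% higher and 6.94% lower) and 10 for 4SU averaged over CEP (9.8%, against 9.48%, 6.82% higher and 2.66% lower). These shares were near or below those of all pairs.

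The smallest p was that of TSPEAR-AS2 over TSPEAR, for which the log2 ratio fell by 1.06 in CEP+4SU (SE 0.30, adjusted p = 0.315). TSPEAR, which carries EAR repeats, read 1.32, 1.72 and 1.82 CPM in DMSO and 3.55, 2.16 and 2.91 in CEP+4SU. PPP1R26-AS1 over PPP1R26 showed a change of 0.83 (SE 0.27, adjusted p = 0.464), with the antisense gene at 3.70, 4.78 and 4.65 CPM in DMSO and 7.36, 7.33 and 6.08 in CEP+4SU. For TMPO-AS1, head-to-head with TMPO, which encodes proteins of the nuclear lamina, the change was -0.73 (SE 0.25, adjusted p = 0.524). TMPO-AS1 read 9.77, 7.64 and 8.50 CPM in DMSO, 6.23, 4.89 and 6.55 in CEP, 6.88, 7.31 and 6.31 in 4SU, and 5.75, 5.75 and 6.08 in CEP+4SU, all treated libraries below the DMSO libraries, while TMPO read 373 to 405 CPM in DMSO and 404 to 511 in CEP+4SU. SREBF2-AS1 over SREBF2, a transcription factor of sterol synthesis, showed 0.64 (SE 0.25), and AC245452.1 over the topoisomerase gene TOP3B 1.15 (SE 0.41), where TOP3B was at 0.431 to 1.87 CPM in these 2 groups.

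For CEP averaged over 4SU the members with the smallest pair p included TMPO-AS1 (-0.52, SE 0.18), AL139393.2 over the kinase gene MAP3K4 (-0.41, SE 0.18), EXOC3-AS1 (-0.44, SE 0.19) and, at an unadjusted p of 0.0507, MMP25-AS1 over MMP25 (1.18, SE 0.54), with adjusted p from 0.506 to 0.569. For 4SU averaged over CEP they were TSPEAR-AS2 (-0.70, SE 0.21), AC024896.1 over TM7SF3 (0.49, SE 0.17), MCM3AP-AS1 over MCM3AP (0.48, SE 0.17), AC139887.2 over the Polycomb gene PCGF3 (0.48, SE 0.18) and CTBP1-DT over CTBP1 (0.47, SE 0.18), with adjusted p from 0.421 to 0.473. AC139887.2 read 4.62, 6.31 and 4.94 CPM in DMSO and 8.90, 8.31 and 7.25 in 4SU.

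Directions within pairs were mixed. For 4SU both genes were positive in 36 of 102 pairs, both negative in 18, the antisense gene alone was positive in 37 and the sense gene alone in 11. For CEP the numbers were 27, 35, 15 and 25. Across the pairs, which share libraries and in part partners, Pearson's r between the antisense and the sense log2 fold change was 0.13 for 4SU and 0.21 for CEP, weak in both.

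Of 38 antisense or regulatory RNAs widely cited in the literature, 11 were among the 124, and 1 of them, MCM3AP-AS1, passed a threshold, for 4SU (0.558% of all genes) and for CEP+4SU (1.64% of all genes). HOTAIR, of the HOXC cluster, read 12.8, 13.6 and 12.5 CPM in DMSO, 14.9, 14.6 and 12.3 in CEP, 11.8, 13.7 and 13.9 in 4SU, and 13.2, 15.2 and 14.5 in CEP+4SU, with overlapping groups. KCNQ1OT1, the imprinted RNA within KCNQ1, was at 0.097 ± 0.020 FPKM over 91667 exon bases, and its 12 libraries ranged from 6.12 to 12.8 CPM. DLEU2 ranged from 8.37 to 14.8 CPM, ZEB1-AS1 from 3.99 to 8.96, LOXL1-AS1 from 11.2 to 16.3, GABPB1-AS1 from 23.6 to 33.1 and THAP9-AS1 from 25.2 to 41.2. In all of these, each treated group overlapped DMSO.

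The HOX clusters, which set positional identity along the body axis and hold many antisense RNAs, gave 8 of the 124. None passed a threshold. For CEP averaged over 4SU, 6 of 8 were negative (median -0.23), against 71 of all 124 members. Of the 62 members of higher GC content, 14 were positive for CEP. The GC content of the HOX members ran from 49.1% (HAGLR) to 62.0% (HOXD-AS2), on both sides of the median of the 124 (49.9%). The part of GC content in their CEP values was not tested. For 4SU averaged over CEP 6 of 8 were positive (75%, median 0.06), near the share of all 124 members (74.2%). HAGLR, of the HOXD cluster, was with HOTAIR 1 of the 2 that were positive for CEP. It read 14.5, 15.3 and 17.1 CPM in DMSO, 20.2, 22.0 and 22.6 in CEP, 18.7, 21.6 and 17.8 in 4SU, and 18.1, 19.3 and 18.0 in CEP+4SU, all treated libraries above DMSO. Its log2 fold change for CEP against DMSO was 0.47 (SE 0.11, adjusted p = 0.173). HOXA-AS2, within HOXA3, read 6.91, 9.61 and 9.08 CPM in DMSO and 6.97, 4.89 and 5.84 in CEP (-0.53, SE 0.18, adjusted p = 0.187). HOXA11-AS read 18.3, 19.3 and 17.8 CPM in DMSO and 16.4, 11.1 and 13.7 in CEP (-0.42, SE 0.16, adjusted p = 0.198), while HOXA11 had -0.04 (SE 0.11). HOXA-AS3, HOXB-AS3 and HOXD-AS2 had log2 fold changes for CEP against DMSO of -0.36 (SE 0.21), -0.21 (SE 0.15) and -0.52 (SE 0.19).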

How the data were processed

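RNA-Seq of HEK293T cells was analysed in 4 groups of 3 libraries, grouped by the treatment on the sample labels. The authors deposited raw gene counts, made with HISAT2 2.0.5 and featureCounts 1.5.0-p3 per their processing notes on GRCh38, and FPKM values that they computed from these counts. The strand setting of the counting is not given in the sources used here. Depth is the sum of counts on genes; no interval was computed, and the spread between replicates sets the precision.

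Counts were filtered (filterByExpr, minimum count 10, minimum total 15), normalized by TMM and fitted over all 12 libraries with edgeR 4.0.16 (R 4.3.3), with Benjamini-Hochberg adjustment at 0.05 over 17729 genes. CPM uses TMM library sizes. SEs are those of the quasi-likelihood fit. Antisense to sense log2 ratios (prior count 2) were tested with limma 3.58.1 over 865 pairs. Overlaps, GC content and exon sharing come from GENCODE 29, whose identifiers, positions and lengths match the deposited table for all 58735 genes. Promoter windows are RefSeq's. The fits were tested on simulated counts.

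Named are members past a threshold, the 5 with the smallest p in each of 3 comparisons and in each pair comparison, the 10 highest in DMSO by FPKM, 3 on each side of the count minimum, members of a list of cited RNAs, and their partners. Others (NNT and NNT-AS1, SLC16A1-AS1, the HOX members, genes used to show a position) were chosen after their values were seen. The members, lists and tests were chosen with earlier results of these data known. Alternatives were DESeq2 1.42.0, other normalizations and filters, a GC correction, a replicate block, limma on log2(FPKM + 1) or log2(FPKM + 0.1), other count minimums, fewer libraries and each library left out; for named genes they were run where the unadjusted p was under 0.05. Shares of all genes called are given for the main fits only. The groups' mean FPKM columns, variant calls and proteomic data were not used here. One pair result among those with the smallest p and one host gene are not reported here.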

Additional observations from a re-analysis of the deposited data

How the results depend on the processing

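The count of antisense genes past the threshold for 4SU averaged over CEP, 5, came to 4 to 7 with DESeq2, upper quartile normalization, library size alone, other filters, GC trend removed or the replicate block. It was 1 with limma on log2(FPKM + 1), 0 with log2(FPKM + 0.1), 3 at a minimum of 2400 counts, 0 within CEP-treated cells alone (a comparison of 6 libraries), 5 without the 2 libraries with the fewest genes, and 0 to 5 with each library left out. The number of members positive for 4SU stayed between 81 and 99 of 124 under all alternatives. For CEP+4SU against DMSO, 2 became 8 with DESeq2, 6 without a low-count filter, 6 at a minimum of 600 counts and 1 at 2400, 1 with upper quartile normalization, 1 with the GC trend removed, 0 and 0 with limma on FPKM, 1 without the 2 libraries with the fewest genes, and 0 to 5 with each library left out. For CEP against DMSO, 0 became 1 with DESeq2, 2 without a low-count filter and 0 to 4 with each library left out. For 4SU against DMSO, 0 became 2 without a low-count filter, 1 with the GC trend removed, 2 with the 6 libraries alone, 1 without the 2 libraries with the fewest genes, and 0 in every leave-one-out fit. For CEP averaged over 4SU, 0 became 4 with DESeq2, 7 without a low-count filter and 0 to 12 with each library left out. The interaction and the antisense to sense pairs gave 0 under every alternative. The causes of these differences were not tested, except that a higher or lower count minimum changes the set of genes counted. Without the share of all genes called in each alternative, these counts cannot be told from a change in calls among all genes. The set of 2 left-out libraries and the comparison within CEP-treated cells were chosen after the data were seen.

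Replicate numbers were shared between groups. Deviations of libraries with one number correlated weakly (mean 0.027 over 18 pairs, range -0.047 to 0.141). Over 36 pairs with different numbers the mean was -0.013. Of 12 libraries, 7 correlated best with their own number, although pairs with one number were fewer than pairs with different numbers (18 against 36). The numbers were not taken as pairing in the main fit, and whether libraries with one number share an effect was not tested. With a replicate block the counts were 2 for CEP, 1 for 4SU, 10 for CEP+4SU, 10 for CEP averaged over 4SU, 7 for 4SU averaged over CEP, and 0 for the interaction and the pairs. The share of all genes called with the block is not given here, so a rise among members cannot be told from a general rise.

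For single named genes, 1180 alternative values kept their side of the threshold, 60 lost it, 61 gained it and none changed sign. All 60 losses fell on the few calls past the threshold in the main fit. Most values that kept their side had not been past it, so the 1180 are no measure of how stable the calls are. Depth limits the antisense genes near 1200 counts, about 100 per library. NUTM2A-AS1 and NUTM2B-AS1 come from near-identical loci, and their values are uncertain.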
